A study of Mus musculus with 10 samples.

Results

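The genes described here encode the proteins of the cytosolic ribosome of the mouse. They were taken by symbol from a table of FPKM values (fragments scaled to the length of the exons and to the depth of the library). A row was a member when its symbol was *Rpl* or *Rps* followed by a number, with at most a letter of an isoform or paralogue, or was *Rpsa*, *Rplp0*, *Rplp1* or *Rplp2*. Rows of retrocopies, whose symbols carry "-ps", and of the S6 kinases were left out. This gave 84 of the 34591 rows, of which 31 encode proteins of the small subunit, 43 proteins of the large subunit, 3 proteins of the stalk of the large subunit and 7 are paralogues of another member. The choice used no expression value.

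The table covers mouse embryonic stem cells (mESCs) in which MiDAC, a histone deacetylase complex scaffolded by DNTTIP1 and ELMSAN1, was disrupted. The 10 libraries came from 5 lines with 2 libraries each. WT cells were male Bruce-4 mESCs of C57/BL6 origin. From them, clones D2A7 and D1E6 were made as *Dnttip1* KO, and E2E8 and E2G7 as *Elmsan1* KO, with CRISPR/Cas9, each from a single sorted cell and with indels that create a premature stop, so that a knockout is represented by 2 clones and a clone by 2 libraries. All lines, WT included, were grown without feeders on gelatin with LIF and inhibitors of GSK3β and MEK (2iL). The labels and the study number the *Dnttip1* KO clones in opposite order, so clones are given by their codes. The question put to the ribosomal protein genes was whether their RNA differed between the knockouts and WT, between the knockouts, and between clones of a knockout.

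A ribosome contains a single copy of nearly every one of these proteins, and cells make them in balanced amounts, so their RNAs are among the most abundant of a dividing cell. Most of their mRNAs begin with a run of pyrimidines (the 5′ terminal oligopyrimidine or TOP motif), through which LARP1 and mTOR set how much of the mRNA is translated. Many of the genes hold small nucleolar RNAs (snoRNAs) in their introns, and many have given rise to retrocopies elsewhere in the genome. A surplus of RPL5 and RPL11 outside the ribosome binds MDM2 and stabilizes p53.

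The fragments recovered from a library's values numbered from 30182379 to 84291842. Of the targeted genes, *Dnttip1* stood at 8.15 and 8.43 FPKM in WT, at 4.57 and 4.56 in D2A7 and at 2.59 and 2.63 in D1E6. *Elmsan1*, listed as *C130039O16Rik*, stood at 5.53 and 5.39 FPKM in WT and between 4.62 and 5.18 in the *Elmsan1* KO libraries, and between 7.79 and 8.68 in the *Dnttip1* KO libraries. A premature stop need not lower the RNA, so this level does not check the label of the *Elmsan1* KO clones. All 9 markers of mESCs were at 59.3 FPKM or more in every library. The 6 fibroblast markers summed to between 0.131 and 0.583 FPKM, the 5 markers of primitive endoderm to between 0.474 and 1.32, and the 4 neural markers in the table to between 44.6 and 87.5, nearly all of it *Tubb3*. For *Lum*, *Dcn* and *Col3a1*, markers of fibroblasts, and *Neurog2*, a neural marker, at least 1 library was at 0.

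The members were highly expressed in every library. Together they took from 7.78% to 9.85% of the summed FPKM and from 5.78% to 6.49% of the fragments. Of the 84 members, 79 were at 100 FPKM or more in every library and 9 at 1000 FPKM or more. Levels per length were widely spread between genes whose products enter the ribosome in equal number. The mean over libraries had a median of 564 FPKM for the 31 genes of the small subunit, with a range from 117 to 1489, and of 393 FPKM for the 46 genes of the large subunit and stalk, with a range from 68.9 to 2587. The length used for a gene is that of all its annotated exons, from 345 to 6262 bases with a median of 1444. It was 6262 bases for *Rps15a* and 6029 for *Rpl24*, the lowest of their subunits by FPKM.

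The 5 highest members by mean level were *Rpl32* (2587 FPKM), *Rplp1* (2300.4 FPKM), *Rpl8* (1654 FPKM), *Rpl4* (1619 FPKM) and *Rps26* (1489 FPKM). *Rpl8* ranged only from 1591 to 1729 FPKM over the 10 libraries, and *Rps26* from 1406 to 1573 FPKM. For *Rps26* both *Dnttip1* KO clones lay above WT and the *Elmsan1* KO clones overlapped with it, while for *Rpl8* the D2A7 libraries and the second of E2G7 lay above the rest. *Rpl4*, a core protein of the large subunit with 5 snoRNAs within its gene, stood at 1602 and 1620.4 FPKM in WT, 1769.8 and 1707 in D2A7, 1504 and 1533 in D1E6, 1639 and 1612 in E2E8 and 1611 and 1596 in E2G7. Its D2A7 libraries were the highest of all and its D1E6 libraries the lowest.

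The 3 proteins of the stalk, which recruits translation factors to the ribosome, differed in level. *Rplp1* stood at 2248 and 2199 FPKM in WT, 2515 and 2522 in D2A7, 2291 and 2173 in D1E6, 2072 and 2147 in E2E8 and 2359 and 2479 in E2G7. *Rplp2*, whose product pairs with that of *Rplp1*, stood at 335 and 284 FPKM in WT, 312 and 302 in D2A7, 297 and 272 in D1E6, 269.8 in both E2E8 libraries and 299 and 306 in E2G7. *Rplp0*, which anchors both, stood at 1284 and 1218 FPKM in WT, 1240.0 and 1228 in D2A7, 1295 and 1245 in D1E6, 1115 and 1103 in E2E8 and 1361 and 1388 in E2G7. In all 3 genes E2E8 was below E2G7 in every library.

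*Rpsa*, the small subunit protein also known as the laminin receptor, ranged from 1021 to 1137 FPKM and *Rps27* from 981 to 1211 FPKM. *Rps14*, whose loss is tied to a form of anaemia, ranged from 563 to 690.3 FPKM. *Rps19*, the gene most often mutated in Diamond-Blackfan anaemia, stood at 148 FPKM in both WT libraries, 181 and 179.8 in D2A7, 162 and 153 in D1E6, 158 and 156 in E2E8 and 160.2 and 169 in E2G7. All 8 knockout libraries were above WT for *Rps19* in FPKM, with D2A7 highest, although D1E6 overlapped with WT once libraries were scaled. *Rpl5* and *Rpl11*, which form a particle with the 5S rRNA, ranged from 197 to 232 FPKM and from 123 to 151 FPKM, with D2A7 highest for both.

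The 7 paralogues spanned the widest range. *Rpl3l*, the counterpart of *Rpl3* in muscle, was near the limit of detection, with 8 to 43 fragments and 0.132 to 0.434 FPKM in a library. *Rpl39l* and *Rpl10l*, which stand in for *Rpl39* and *Rpl10* in male germ cells, ranged from 3.32 to 14.7 FPKM and from 9.76 to 27.1 FPKM. *Rpl7l1* ranged from 101 to 115 FPKM, *Rps27l*, a p53 target in many cells, from 185 to 227 FPKM, *Rpl22l1* from 224 to 380.1 FPKM and *Rps4y2* from 343 to 573 FPKM. RefSeq lists *Rps4y2* as *Rps4l*, a transcribed pseudogene, while GENCODE vM1, the annotation on the build of the files, has it as protein coding. The 4 paralogues above 100 FPKM in every library were thus expressed at levels within the range of the canonical genes.

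**Figure D1:**
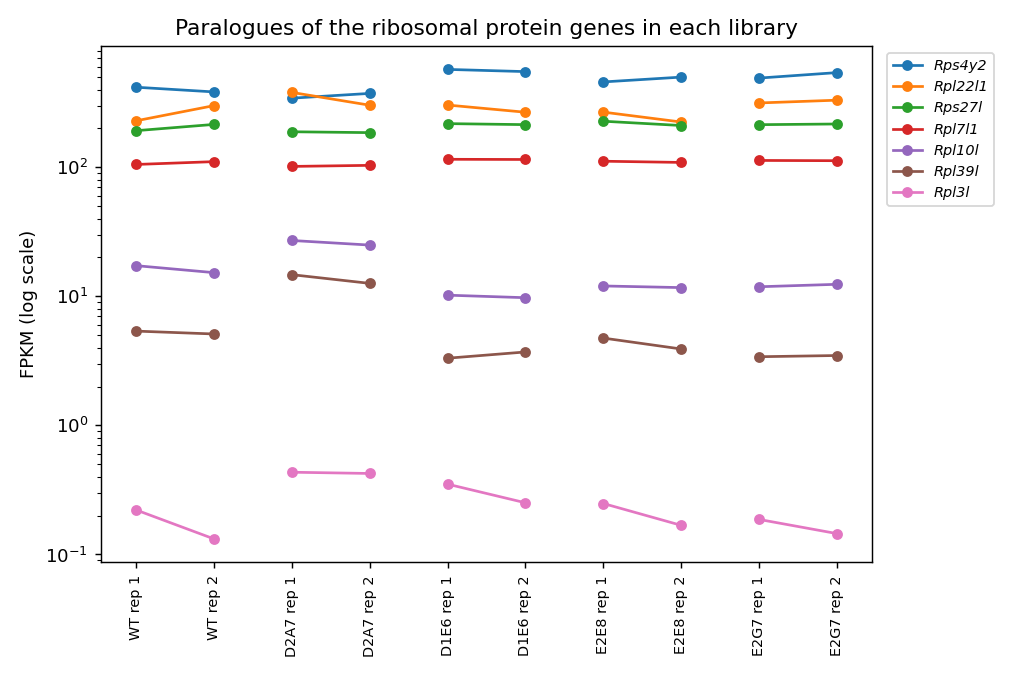
Levels of the 7 paralogues in FPKM (log scale) in each of the 10 libraries, with lines joining the 2 libraries of a line of cells. *Rpl39l* and *Rpl10l* were highest in both D2A7 libraries (12.6 and 14.7 FPKM, 24.95 and 27.1 FPKM), while *Rps4y2* was lowest there.

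The promoters of members in RefSeq (GRCm38.p6, a later build than that of the files) show what the genes share in sequence. Of the 84 members, 62 had at least 1 entry, with 74 entries in all. A run of 6 or more pyrimidines within 15 bases of the start on either side was in 39 of the 74 (52.7%), against 29.2% of the 32851 entries of all genes. The motif TCTCGCGA was found on either strand in 14.9% of the 300 bases around a member's start, against 0.995% of all promoters. CCGGAAGT, the site of ETS factors such as GABPA, was in 16.2% on either strand, against 3.89%. TATAA, searched between 40 and 16 bases before the start on the coding strand, was in 6.76%, against 3.52%. A single start per entry was used, and matches are descriptions of these letters in these windows.

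The windows of 30 bases around the start are given for genes on which the comparisons turn, with the pyrimidine run in capitals. *Rpl13* was called in both knockouts, *Rpl4* between the *Dnttip1* KO clones, *Rplp2*, *Rps6*, *Rps12* and *Rpl22l1* between the *Elmsan1* KO clones, and the pairs of *Rpl39* and *Rps27* with their paralogues show a canonical gene beside its copy. *Rpl22* is shown as a member without a run of this length. The windows are those of chr8:123102335-123102364 (+) for *Rpl13*, chr9:64173372-64173401 (+) for *Rpl4*, chr7:141447636-141447665 (+) for *Rplp2*, chr4:86857353-86857382 (-) for *Rps6*, chr10:23787195-23787224 (-) for *Rps12*, chr3:28805493-28805522 (+) for *Rpl22l1*, chrX:37085208-37085237 (-) for *Rpl39*, chr16:10170213-10170242 (+) for *Rpl39l*, chr3:90213634-90213663 (-) for *Rps27*, chr9:66946071-66946100 (+) for the first of the starts of *Rps27l* and chr4:152324421-152324450 (+) for *Rpl22*.
Rpl13: TTCCCTTTCgcctgattttgattggcgttt
Rpl4: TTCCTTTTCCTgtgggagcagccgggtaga
Rplp2: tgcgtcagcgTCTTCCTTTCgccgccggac
Rps6: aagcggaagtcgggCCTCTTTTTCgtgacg
Rps12: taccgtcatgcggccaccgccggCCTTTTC
Rpl22l1: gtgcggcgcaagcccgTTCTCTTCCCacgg
Rpl39: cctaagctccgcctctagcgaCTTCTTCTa
Rpl39l: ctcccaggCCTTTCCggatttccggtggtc
Rps27: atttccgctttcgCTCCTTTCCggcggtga
Rps27l: ccaCTCCTCCCCgccgcctctatcccggaa
Rpl22: cgctgcttctggaatgttccagctcccact

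In the 38 members with such a run in any entry, the median log2 fold changes were 0.13 between D2A7 and D1E6 and -0.08 between E2E8 and E2G7. They were 0.15 and -0.07 in the 24 members with entries but no run. The 30 members with snoRNAs in their span, 58 snoRNAs in all, had medians of 0.14 and -0.09 in these comparisons, and the other 54 had 0.13 and -0.08.

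Members varied little between lines. The SD between the 2 libraries of a line had a median of 0.0496 on the log2 scale, close to the 0.0546 of the 12215 genes that averaged 1 FPKM or more. The SD between the 5 line means had a median of 0.0814 for the members, against 0.172 for those genes and 0.138 for the 641 other genes that averaged 100 FPKM or more. The spread of members between lines was thus smaller than that of other genes of like abundance, although close to theirs within a line.

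Against WT, the members of D2A7 stood apart from the other clones. Each value was divided by the library's median ratio to the geometric mean, and the log2 difference of a clone's mean from the WT mean was taken. The median over the 84 members was 0.11 in D2A7, where 72 of 84 were above WT, -0.03 in D1E6 with 32 above, -0.06 in E2E8 with 28 above and 0.04 in E2G7 with 55 above. Over the 12215 genes that averaged 1 FPKM or more, the medians of the 4 clones lay between -0.004 and 0.006. Library by library, the medians over the 83 members with a mean of at least 1 FPKM were 0.02 and -0.02 in WT, 0.12 and 0.08 in D2A7, -0.02 and -0.04 in D1E6, -0.04 and -0.09 in E2E8 and -0.002 and 0.05 in E2G7. D2A7 lay above and E2E8 below both WT libraries, while D1E6 and E2G7 each had a library within the WT range. The SD of a library's median within lines was 0.0293, about the size of the offsets of D1E6 and E2G7. For the 641 other genes that averaged 100 FPKM or more, the medians were -0.03 and -0.04 in D2A7. They were -0.05 and -0.08 in E2E8, close to those of the members.

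The summed FPKM of the members was also highest in D2A7. It was 45444 and 45941 in WT, 49684 and 49313 in D2A7, 47113 and 46758 in D1E6, 46015 and 45133 in E2E8 and 47189 and 48799 in E2G7. D1E6 was thus above WT by its sums, unlike by its median. Once scaled, the sums were 47103 and 45514 in WT, 49647 and 49223 in D2A7, 46911 and 46137 in D1E6, 45778 and 44744 in E2E8 and 47245 and 48790 in E2G7, and D1E6 overlapped with WT. A single non-coding gene, *AC157822.1*, moved in the opposite direction, with 8.12% and 7.38% of the summed FPKM in WT, 3.94% and 3.97% in D2A7, 5.203% and 4.199% in D1E6, 8.74% and 8.58% in E2E8 and 5.27% and 5.13% in E2G7. Its part in the sums was not tested. In these bulk libraries a larger share of cells with a high level cannot be told apart from more RNA in every cell.

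**Figure D2:**
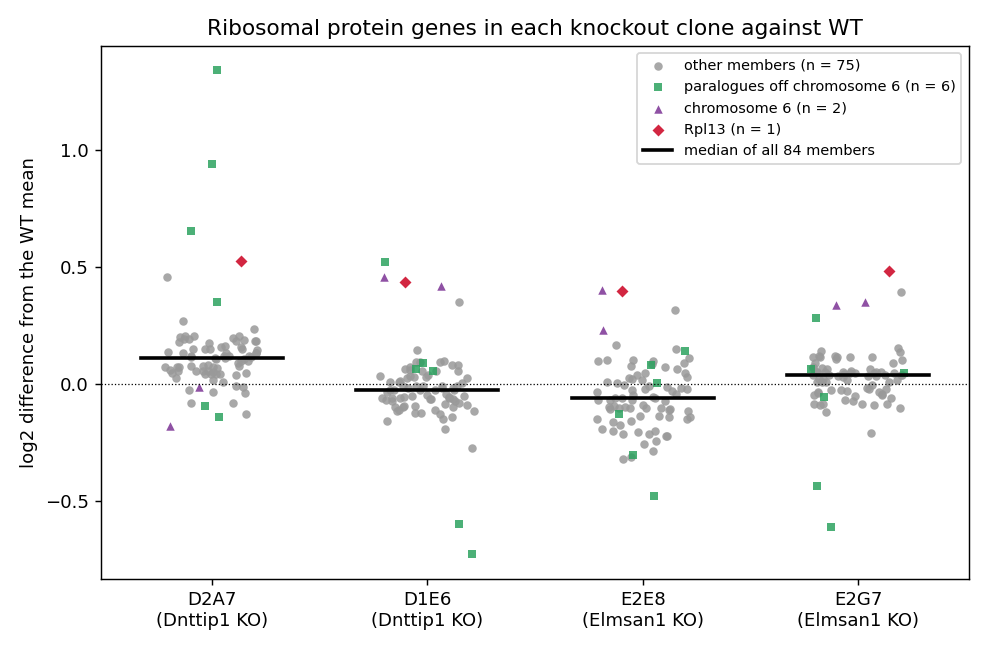
Log2 difference from the WT mean for each of the 84 members in the 4 knockout clones, with *Rpl13*, members on chromosome 6 and paralogues marked and the median drawn as a bar. The medians were 0.11, -0.03, -0.06 and 0.04, and *Rpl13* lay above WT in every clone.

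In *Dnttip1* KO against WT, with 4 libraries against 2, 2 members were higher and 0 lower at an adjusted p under 0.05 (limma with Benjamini-Hochberg adjustment over 17434 genes). Over all genes tested, 5.19% were higher and 4.28% lower, a larger share than among the members. *Rpl13*, a protein of the large subunit encoded on chromosome 8, rose by 0.48 ± 0.06 (log2, SE, adjusted p = 0.0102). The median over members was 0.04, and 0.02 over all genes. By the rule of at least 1.5-fold and an unadjusted p under 0.01, which the study used for its DEGs, no member was called, against 3.26% of genes higher and 3.25% lower.

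Of the 84 members, 13 had all 4 *Dnttip1* KO libraries above both WT libraries and 2, *Rps25* and *Rps27a*, had all 4 below, where 21.1% and 20.8% of all genes did so. The 2 libraries of a clone are not independent samples of a knockout. Their correlation over genes was estimated at 0.704, and with it the adjusted p became 0.122 for *Rpl13*, with no member called. Of all genes only 0.155% were then higher and 0.172% lower, so the loss of calls was not particular to members. The call of *Rpl13* was also lost when either WT library was left out, but a lone WT library then remained, whose spread cannot be measured. P-values here measure the spread between libraries, which holds the differences between the clones of a knockout. The spread between the 2 libraries of a line may be technical, and comparisons between clones rest on it alone.

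In *Elmsan1* KO against WT, 2 members were higher and 1 lower, where 5.62% of 17212 genes were higher and 4.91% lower. *Rpl13* was again among the higher members (0.44 ± 0.07, adjusted p = 0.0148). The WT libraries are shared with the preceding comparison, so the 2 results are not independent of each other. The lower member was *Rpl10l*, the germ cell paralogue of *Rpl10* (-0.46 ± 0.08, adjusted p = 0.0198), with 12.0 and 11.7 FPKM in E2E8 and 11.9 and 12.4 in E2G7 against 17.3 and 15.3 in WT. All 4 knockout libraries were below both WT libraries. The median over members was -0.02, and 0.00 over all genes.

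No member passed the 1.5-fold rule in *Elmsan1* KO, against 2.74% of genes higher and 3.68% lower. All 4 libraries were above WT for 13 members and below WT for 14, where 21.3% and 21.8% of all genes were. With an estimated correlation of 0.768 within lines, the adjusted p became 0.255 for *Rpl13* and 0.380 for *Rpl10l*. Of all genes only 0.145% were then higher and 0.227% lower. The calls of *Rpl13* and *Rpl10l* were also lost when either WT library was left out, where a lone WT library remained.

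*Rpl13* moved with its chromosome. It (ENSMUSG00000000740, NCBIM37 chr8:125626250-125629144, + strand) stood at 265 and 284 FPKM in WT, 414 and 387 in D2A7, 380.4 and 377 in D1E6, 375 and 361 in E2E8 and 369 and 408 in E2G7. All 8 knockout libraries lay above both WT libraries. The 665 genes of chromosome 8 that averaged 1 FPKM or more and were no members had medians of 0.37 in D2A7, 0.37 in D1E6, 0.35 in E2E8 and 0.35 in E2G7 on the log2 scale from WT, a median fold of 1.27 to 1.29. *Rpl13* lay at 0.52, 0.43, 0.40 and 0.48 in the same clones.

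Once the genes of chromosomes 6 and 8 were centred on the median of their chromosome in each library, no member was higher than WT in either knockout. *Rpl13* then stood at 0.11 in *Dnttip1* KO (adjusted p = 0.290) and 0.09 in *Elmsan1* KO (adjusted p = 0.469). What moved the chromosome was not tested.

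The 2 members on chromosome 6 were higher in 3 of the 4 clones. *Rpl32* (ENSMUSG00000057841, chr6:115755523-115758765, - strand) stood at 2173 and 2139.6 FPKM in WT, 2165 and 2169 in D2A7, 2969.65 and 2928 in D1E6, 2982 and 2822 in E2E8 and 2718 and 2806 in E2G7. *Rps4y2* (ENSMUSG00000063171, chr6:148303178-148304120, + strand) stood at 417 and 383 FPKM in WT, 343 and 373 in D2A7, 573 and 551 in D1E6, 458 and 499 in E2E8 and 491 and 541 in E2G7. D2A7 lay with WT or below it, and the other clones lay above both WT libraries for both genes. The 540 other genes of chromosome 6 had medians of -0.08 in D2A7, 0.42 in D1E6, 0.39 in E2E8 and 0.29 in E2G7, while medians of the remaining chromosomes lay between -0.10 and 0.04.

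Neither gene passed the test over a whole knockout. *Rpl32* was at 0.20 ± 0.17 in *Dnttip1* KO (adjusted p = 0.485) and 0.37 ± 0.10 in *Elmsan1* KO (adjusted p = 0.0603), and *Rps4y2* at 0.14 ± 0.24 (adjusted p = 0.744) and 0.29 ± 0.09 (adjusted p = 0.0974). *Rpl32* in *Elmsan1* KO passed under 8 alternative settings, with an adjusted p of 0.0373 without a variance trend and 0.0204 with voom. With chromosomes 6 and 8 centred it was at 0.03 (adjusted p = 0.857), and over all alternatives its adjusted p ranged from 0.00148 to 0.857. Without the members on chromosomes 6 and 8, the medians were 0.11 in D2A7, -0.03 in D1E6, -0.07 in E2E8 and 0.03 in E2G7.

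**Figure D3:**
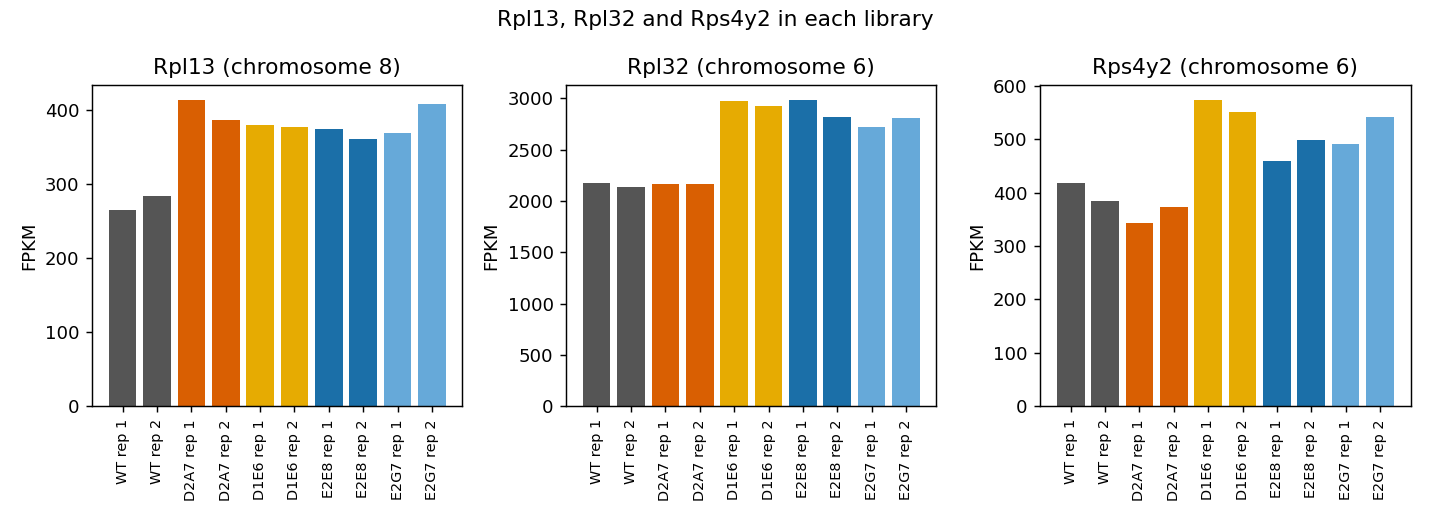
FPKM of *Rpl13* on chromosome 8 and of *Rpl32* and *Rps4y2* on chromosome 6 in each of the 10 libraries, with bars from 0 coloured by line. *Rpl13* was above both WT libraries in all 8 knockout libraries, and *Rpl32* and *Rps4y2* in those of D1E6, E2E8 and E2G7 but not in D2A7.

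Between the knockouts, with 4 libraries each, 0 members were higher and 0 lower in *Dnttip1* KO than in *Elmsan1* KO by limma at an adjusted p under 0.05, where 0.0284% and 0.00569% of 17588 genes were. At an unadjusted p under 0.05, 3 members were higher and 0 lower. Over all genes 9.21% were higher and 6.62% lower at that p. With all 10 libraries in a single fit, 22 members were higher and 2 lower (26.2% and 2.38%), where 22.3% and 20.9% of all genes were. That fit takes its error only from the 2 libraries of each line and leaves out differences between clones. Its calls thus do not extend to the knockouts, and from WT the median of D1E6 (-0.03) lay below that of E2G7 (0.04). With voom the counts were 0 and 0. The median over members was 0.05, and 0.01 over all genes, and 71 of the 84 had a positive difference, as had 9124 of the 17588 genes. By the 1.5-fold rule 1 member was higher and 0 lower, against 1.11% and 0.415% of genes.

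That member was *Rpl3l*, at 0.69 ± 0.20 (adjusted p = 0.296), with 0.434 and 0.424 FPKM in D2A7, 0.351 and 0.251 in D1E6, 0.248 and 0.168 in E2E8, 0.187 and 0.145 in E2G7 and 0.222 and 0.132 in WT. At 8 to 43 fragments a library its level carries a wide counting error. The largest difference was that of *Rpl39l*, 0.83 ± 0.48 (adjusted p = 0.390), and D2A7 was the only clone above WT for it.

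Within *Dnttip1* KO, members and all genes alike were called more often between the clones than between the knockout and WT. The knockout fit holds the differences between clones in its spread and the clone fit does not, so their counts are not comparable. D2A7 against D1E6 had 28 members higher and 4 lower, where 23.3% of 16991 genes were higher and 17.4% lower. The median over members was 0.14, against 0.04 over all genes, and 78 of 84 had a positive difference, as had 9387 of the 16991 genes. All 31 members of the small subunit were positive, 9 of them past the test, and 43 of the 46 of the large subunit and stalk, 17 of them past the test. By the 1.5-fold rule 2 members, *Rpl39l* and *Rpl10l*, were higher and 1, *Rps4y2*, lower, against 9.2% and 3.73% of genes.

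Outside the paralogues, the 26 higher members rose by small amounts, from 0.10 to 0.27 on the log2 scale with a median of 0.18. The highest of them was *Rps29* (0.27 ± 0.04, adjusted p = 0.00637), a small zinc-binding protein of the small subunit, with 498 and 508 FPKM in D2A7 against 422 and 416 in D1E6 and 452 and 465 in WT. *Rps19* rose by 0.21 ± 0.04 (adjusted p = 0.0202), *Rpl4* by 0.21 ± 0.06 (adjusted p = 0.0437) and *Rpl5* by 0.17 ± 0.04 (adjusted p = 0.0192). *Rpl11*, the partner of *Rpl5*, rose by 0.15 ± 0.03 (adjusted p = 0.0266). *Rpl22* rose by 0.15 ± 0.03 (adjusted p = 0.0227), with 184 and 178 FPKM against 164 in both D1E6 libraries. *Rplp0*, *Rplp1*, *Rplp2*, *Rpsa*, *Rps6*, *Rps14* and *Rps27* did not pass the test here, with differences from -0.03 to 0.19.

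The paralogues moved most and in both directions. *Rpl39l* rose by 1.94 ± 0.10 (adjusted p = 0.000532), with 14.7 and 12.6 FPKM in D2A7, 3.32 and 3.71 in D1E6 and 5.38 and 5.11 in WT. *Rpl10l* rose by 1.38 ± 0.06 (adjusted p = 0.000473), with 27.1 and 24.95 FPKM in D2A7, 10.2 and 9.76 in D1E6 and 17.3 and 15.3 in WT. For both genes D2A7 lay above WT and D1E6 below it, and the *Elmsan1* KO clones lay below WT too. In these *Rpl39l* stood at 4.75 and 3.91 FPKM in E2E8 and 3.40 and 3.48 in E2G7. Their parents varied less, *Rpl39* from 273 to 353 FPKM and *Rpl10* from 199 to 226 FPKM over all libraries.

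The 4 lower members were *Rps4y2* (-0.64 ± 0.06, adjusted p = 0.00195) and *Rpl32* (-0.43 ± 0.07, adjusted p = 0.00789) on chromosome 6, *Rps27l* (-0.20 ± 0.03, adjusted p = 0.0108) and *Rpl7l1* (-0.16 ± 0.03, adjusted p = 0.0145). With chromosomes 6 and 8 centred, *Rpl32* was at 0.07 (adjusted p = 0.417) and *Rps4y2* at -0.14 (adjusted p = 0.112), which left 2 lower. *Rps27l* stood at 188 and 185 FPKM in D2A7 against 218 and 214 in D1E6 and 192 and 215 in WT. Its parent *Rps27* stood at 1185 and 1211 FPKM in D2A7, 1135 and 1104 in D1E6 and 1034 and 1124 in WT.

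The count of higher members depended on single libraries. It was 8 without D2A7 replicate 1, 20 without D2A7 replicate 2, 8 without D1E6 replicate 1 and 4 without D1E6 replicate 2, with medians of 0.11 to 0.15, where 17%, 17.6%, 15.3% and 16% of all genes were higher. It was 45 with voom, run on recovered fragments (54.2% of members, 25.7% of genes), 9 without a variance trend (10.7%, 20.4%) and 3 without a filter on low genes (3.57%, 5.27%). Whether the share of higher members was above or below that of all genes thus depended on the fit and on single libraries. *Rpl39l* and *Rpl10l* kept an adjusted p of at most 0.0295 and 0.0233 under every alternative that was run.

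Within *Elmsan1* KO the members differed in the other direction. E2E8 against E2G7 had 0 members higher and 15 lower by limma, where 29.3% of 16723 genes were higher and 21.4% lower. The share of lower members was thus below that of all genes in this fit. At an unadjusted p under 0.05, 1 was higher and 28 lower, where 33.4% and 24.7% of all genes were. The median over members was -0.08, against 0.05 over all genes. Of the members 64 of 84 were negative, while 9400 of the 16723 genes were positive. The 641 other genes that averaged 100 FPKM or more had a median of -0.08 as well, with 88 higher and 232 lower. A lower level in E2E8 was thus not particular to the members. By the 1.5-fold rule 0 were higher and 0 lower, against 10.5% and 3.27% of genes.

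The 15 lower members fell by 0.12 to 0.41 on the log2 scale. They comprised 6 of the 31 genes of the small subunit, 8 of the 46 of the large subunit and stalk and 1 paralogue. *Rpl22l1* fell by 0.41 ± 0.09 (adjusted p = 0.0194), with 267 and 224 FPKM in E2E8, 315 and 331 in E2G7 and 229 and 299.9 in WT, so that the WT libraries spanned most of the difference. *Rplp0* fell by 0.32 ± 0.05 (adjusted p = 0.00809) and *Rplp2* by 0.18 ± 0.03 (adjusted p = 0.0122). *Rps12* fell by 0.28 ± 0.05 (adjusted p = 0.00995), with 675 and 649 FPKM in E2E8 against 783 and 815 in E2G7 and 824 and 788 in WT. It holds 3 snoRNAs, and 5 retrocopies of it are in the table. *Rps6*, the substrate of the S6 kinases, fell by 0.20 ± 0.04 (adjusted p = 0.0103), with 409.9 and 407 FPKM in E2E8, 464 and 470.2 in E2G7 and 420.4 and 419 in WT. For *Rplp0* and *Rps12* E2E8 was below WT, while for *Rps6* it was E2G7 that stood above WT by more than E2E8 stood below it.

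Here too single libraries weighed on the count. It was 17 without E2E8 replicate 1, 9 without E2E8 replicate 2, 6 without E2G7 replicate 1 and 2 without E2G7 replicate 2, against 19%, 17.9%, 13.4% and 14% of all genes. Voom called 51 lower (61.4% of members, 29.5% of genes), a single fit of all 10 libraries 24 (28.6% of members, 21.7% of genes) and a fit without a filter 0 (4.9% of genes). Whether the share of lower members was below or above that of all genes thus depended on the fit. *Rps12* and *Rplp2* were at adjusted p of 0.0541 and 0.0710 without E2G7 replicate 2. *Rpl22l1* and *Rps6* were at 0.0503 and 0.0507 without E2G7 replicate 1 and at 0.0718 and 0.0596 without E2G7 replicate 2.

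**Figure D4:**
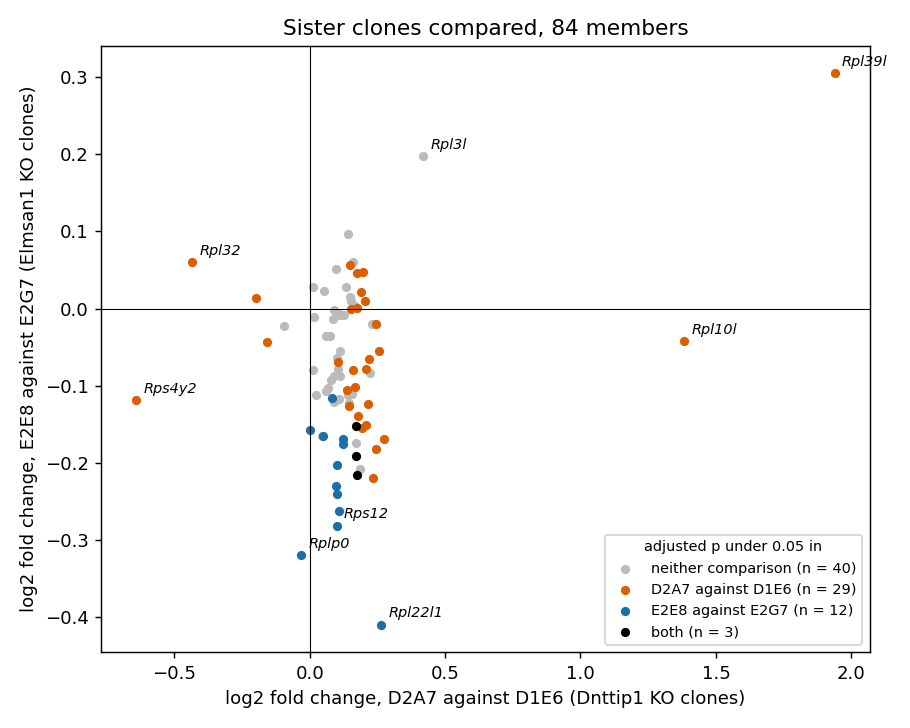
Log2 fold changes of the 84 members in D2A7 against D1E6 (x axis) and in E2E8 against E2G7 (y axis), coloured by the comparison in which the adjusted p was under 0.05. Most points lie right of 0 and below 0 (60 of 84), *Rpl39l* and *Rpl10l* lie far to the right, and 3 members were called in both.

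These comparisons between clones share no library. *Rpl6*, *Rpl30* and *Rps3a* were called in both, 10.7% of the 28 higher in D2A7 and 20.0% of the 15 lower in E2E8, where 24.8% and 25.9% of the genes called in these directions were shared. A positive difference in the first and a negative one in the second was seen for 60 of the 84 members, 18 were positive in both, 2 negative and then positive and 4 negative in both. Of the 16300 genes tested in both, 23.4% were positive in the first and negative in the second. Over all 4 clones, 16 members were above the WT mean in each, among them *Rpl13*, *Rps14* and *Rps19*, and 6 were below it in each, namely *Rpl10*, *Rpl15*, *Rplp2*, *Rps21*, *Rps25* and *Rps27a*. Of the 12215 genes that averaged 1 FPKM or more, 22.8% were above and 22.3% below WT in all 4 clones.

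Other genes of ribosome production did not move as one with the members. Of 48 factors that assemble ribosomes in the nucleolus, 0 were higher and 33 lower in D2A7 than in D1E6, with a median of -0.16, where the members had 0.14. Of all genes 23.3% were higher and 17.4% lower there. *Gar1*, a core protein of H/ACA snoRNPs, fell by 0.58 ± 0.03 (adjusted p = 0.000583). *Nop2*, an rRNA methyltransferase encoded on chromosome 6, was also lower by 0.58 ± 0.03 (adjusted p = 0.000617). It stood at 101 and 104 FPKM in D2A7, 153 and 156 in D1E6 and 106 and 102 in WT. The genes tested on chromosome 6 had a median of -0.42 in this comparison. In E2E8 against E2G7, 2 of the 48 were higher and 33 lower with a median of -0.17, among them *Fbl*, the rRNA methyltransferase fibrillarin (-0.31 ± 0.04, adjusted p = 0.00363), and there the members were negative as well. In that comparison 29.3% of all genes were higher and 21.4% lower. Against WT, 0 were higher and 1 lower in *Dnttip1* KO, and 1 higher and 2 lower in *Elmsan1* KO, with medians of -0.09 in both. With the estimated correlation the adjusted p of each of these was at least 0.293. *Nob1*, the 1 higher in *Elmsan1* KO, is encoded on chromosome 8. It was at 0.39, beside medians of 0.35 for its chromosome in E2E8 and E2G7. Of all genes 5.19% were higher and 4.28% lower in *Dnttip1* KO, and 5.62% and 4.91% in *Elmsan1* KO.

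A list of 17 other genes was taken as having TOP mRNAs, mainly translation factors, with *Hnrnpa1*, *Npm1*, *Tpt1*, *Naca* and *Btf3* beside them. Of these 17, 16 were positive in D2A7 against D1E6, 5 of them past the test, with a median of 0.09. Among all genes 9387 of 16991 were positive there, and 23.3% were higher past the test. *Pabpc1*, the poly(A)-binding protein, rose by 0.36 ± 0.05 (adjusted p = 0.00486), with 109 and 107 FPKM in D2A7, 81.6 and 88.9 in D1E6 and 95.7 and 102 in WT. In E2E8 against E2G7, 0 of the 17 were higher and 8 lower with a median of -0.11, *Eef1d* most of all (-0.38 ± 0.03, adjusted p = 0.00161). Of all genes 29.3% were higher and 21.4% lower there. In *Elmsan1* KO against WT, *Eif3e* (-0.30 ± 0.06, adjusted p = 0.0235) and *Pabpc1* (-0.27 ± 0.04, adjusted p = 0.0149) were lower and 0 higher, with a median of -0.16. With the estimated correlation their adjusted p was 0.329 and 0.203. In *Dnttip1* KO the counts were 0 and 0 with a median of -0.06. Of all genes 5.62% were higher and 4.91% lower in *Elmsan1* KO, and 5.19% and 4.28% in *Dnttip1* KO.

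Of 14 genes of RNA polymerase I and its factors, 1 was higher and 3 lower in D2A7 than in D1E6 with a median of -0.03, and 1 higher and 9 lower in E2E8 than in E2G7 with a median of -0.20. Of 75 genes of the mitochondrial ribosome, 8 were higher and 21 lower in the first comparison (median -0.04) and 6 and 23 in the second (median -0.05). Of all genes 23.3% were higher and 17.4% lower in the first and 29.3% and 21.4% in the second. *Fau* and *Gnb2l1*, which encode further proteins of the small subunit, rose with the members in D2A7 against D1E6, at 0.14 for *Fau*, which did not pass the test, and 0.23 ± 0.04 (adjusted p = 0.0151) for *Gnb2l1*.

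**Figure D5:**
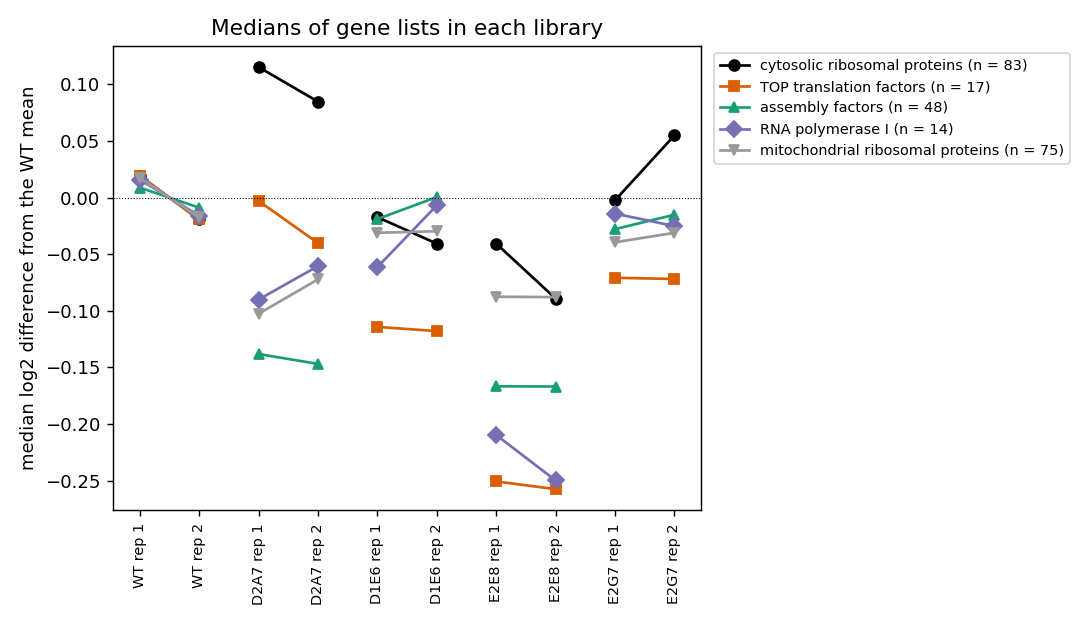
Median log2 difference from the WT mean over the genes of 5 lists (those that averaged 1 FPKM or more) in each of the 10 libraries, with lines joining the libraries of a line of cells. The cytosolic ribosomal protein genes were at 0.12 and 0.08 in D2A7 while the assembly factors were at -0.14 and -0.15, and all 5 lists were below 0 in E2E8.

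Among 15 regulators of ribosome production, *Mycn* was lower in D2A7 than in D1E6 (-0.46 ± 0.03, adjusted p = 0.000796), with 34.9 and 35.6 FPKM against 49.0 and 48.8 and against 58.7 and 55.3 in WT. It was also lower in E2E8 than in E2G7 (-0.20 ± 0.03, adjusted p = 0.00558). *Larp1*, which binds TOP mRNAs, was lower in both (-0.16 ± 0.03, adjusted p = 0.0191, and -0.22 ± 0.04, adjusted p = 0.00773). *Eif4ebp1*, an inhibitor of cap-dependent translation encoded on chromosome 8, was higher in both knockouts than in WT (0.43 ± 0.07, adjusted p = 0.0198, and 0.58 ± 0.13, adjusted p = 0.0389), beside medians of 0.35 to 0.37 for its chromosome. With the estimated correlation its adjusted p was 0.297 and 0.264. In all, 2 of the 15 were higher and 4 lower in D2A7 against D1E6, and 1 higher and 7 lower in E2E8 against E2G7. The shares of all genes were 23.3% and 17.4% in the former and 29.3% and 21.4% in the latter.

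Of 10 genes of p53 and its response, 6 were higher and 1 lower in E2E8 than in E2G7, with a median of 0.22. Of all genes 29.3% were higher and 21.4% lower there. *Cdkn1a*, the inhibitor of cyclin-dependent kinases, rose by 0.37 ± 0.03 (adjusted p = 0.00116) and *Mdm2* by 0.17 ± 0.03 (adjusted p = 0.00973), while *Trp53* itself fell by 0.48 ± 0.03 (adjusted p = 0.000786). *Rpl5* and *Rpl11* were at 0.05 and -0.13 in that comparison and did not pass the test. In D2A7 against D1E6, 1 of the 10 was higher and 3 lower with a median of -0.10, where 23.3% and 17.4% of all genes were.

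Markers of mESCs moved with the same clones. In D2A7 against D1E6, 5 of the 9 were higher and 0 lower, with a median of 0.19, where 23.3% and 17.4% of all genes were. In E2E8 against E2G7, 1 was higher and 6 lower, with a median of -0.16, where 29.3% and 21.4% of all genes were. The summed level was 3870.2 and 3613 FPKM in D2A7 against 3259 and 3163 in D1E6, and 3115 and 2917 in E2E8 against 3258 and 3252 in E2G7. In WT it was 2992 and 3172. Most of each sum was *Dppa5a*, at 1497 and 1658 FPKM in WT, 2296 and 2051 in D2A7 and 1930 and 1727 in E2E8. The median over the 9 markers from WT was 0.05 and 0.01 in D2A7 and -0.17 and -0.16 in D1E6. It was -0.34 and -0.38 in E2E8 and -0.19 and -0.18 in E2G7. In *Elmsan1* KO against WT, *Klf4*, *Nanog* and *Sox2* were called lower and *Zfp42* higher, where 4.91% of all genes were lower and 5.62% higher. In *Dnttip1* KO *Sox2* was called lower and *Zfp42* higher, against 4.28% and 5.19% of genes. *Zfp42* is encoded on chromosome 8. It was at 0.36 in *Elmsan1* KO and 0.50 in *Dnttip1* KO, beside medians of 0.35 to 0.37 for its chromosome. None of the 4 was called in either knockout with the estimated correlation. The part of these differences in those of the members was not tested.

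Reads of members are uncertain where near-identical copies exist. Of the members, 53 had retrocopies in the table, 172 rows in all, of which 69 reached 10 FPKM in at least 1 library. The retrocopies summed to between 10399 and 11960 FPKM in a library, and the authors' counting could have split reads between a gene and its copies. The 59 copies with a mean of at least 10 FPKM off chromosomes 6 and 8 had medians of 0.12 in D2A7, -0.01 in D1E6, -0.04 in E2E8 and 0.03 in E2G7 from WT, next to 0.11, -0.03, -0.06 and 0.04 for the members. The 6 such copies on chromosome 6 had medians of 0.12, -0.02, -0.08 and 0.03 and the 3 on chromosome 8 of 0.02, -0.07, -0.03 and -0.04. Their medians thus lay away from those of the other genes of their chromosome, at 0.42, 0.39 and 0.29 on chromosome 6 in D1E6, E2E8 and E2G7 and at 0.35 or more on chromosome 8.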

How the data were processed

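RNA-seq libraries of 10 mESC samples, 2 for each of 5 lines, were grouped by the genotype and clone in their labels. The authors prepared stranded libraries from total RNA, sequenced them from both ends, aligned them to NCBIM37, obtained gene counts from HT-seq and deposited FPKM values. The submitters' processing notes name edgeR 3.16.5, limma and R 3.3.1. The methods name GENCODE vM20 for counting, whereas 97.2% of identifiers matched vM1, which gave positions and exon lengths for 83 members (*Rpl41* was not matched).

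From 98.3% to 98.6% of FPKM values under 100 steps were whole multiples of 1 step within 0.05 after multiplication by exon length, which gave the fragments behind them. Libraries were divided by their median ratio to the geometric mean of 11270 genes (factors from 0.965 to 1.01). Genes that reached 0.1 FPKM in 2 or more of the libraries compared entered the test as log2(FPKM + 0.1), which understates changes of low genes, with limma 3.58.1 in R 4.3.3 (variance trend, two-sided, p-values adjusted by Benjamini-Hochberg across the genes that entered). All 84 members were tested in each of the 5 comparisons. The fit was tested on simulated libraries that varied independently, with no differences between clones. That test thus does not cover the correlation within lines. Python 3.11.15 and matplotlib 3.10.9 were used for tables and figures.

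Named are the 5 highest and 3 lowest members, the paralogues, proteins of the stalk, *Rpsa*, *Rpl5*, *Rpl11*, *Rpl22*, *Rps6*, *Rps14*, *Rps19*, *Rps27*, members on chromosomes 6 and 8, and up to 3 called members in each direction, except that 1 member and 1 gene of a list are not reported here. Others were named for context after their values were seen. Members, lists and alternatives were chosen with earlier results of these data known.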

Additional observations from a re-analysis of the deposited data

Results flagged for a closer look

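Some members differed between clones of the same knockout, which carry the same targeted gene, by limma at an adjusted p under 0.05. In D2A7 against D1E6 the log2 differences were 1.94 for *Rpl39l*, 1.38 for *Rpl10l*, 0.27 for *Rps29*, 0.21 for *Rps19*, 0.21 for *Rpl4*, 0.17 for *Rpl5*, 0.15 for *Rpl22* and 0.15 for *Rpl11*. They were -0.64 for *Rps4y2*, -0.43 for *Rpl32*, -0.20 for *Rps27l* and -0.16 for *Rpl7l1*. In E2E8 against E2G7 they were -0.41 for *Rpl22l1*, -0.32 for *Rplp0*, -0.28 for *Rps12*, -0.20 for *Rps6* and -0.18 for *Rplp2*. Each difference rests on 2 libraries of each clone. Both libraries of a clone lay on the same side of both libraries of the other for every gene listed. As the genes were picked by the test on these same libraries, this adds no further support.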

How the results depend on the processing

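In *Dnttip1* KO against WT the 2 higher members became 1 without a filter on low genes, against 1.49% of genes. They became 13 with all 10 libraries in a single fit (15.5% of members, 25.1% of genes). With a correlation within lines they became 0 (0.155% of genes), and with chromosomes 6 and 8 centred 0 (2.94% of genes). They became 14 with D2A7 alone (16.7% of members, 22.2% of genes). With D1E6 alone 5 were higher (5.95% of members, 16.2% of genes) and 4 lower (4.76%, 16.6%). The median was 0.11 with D2A7 alone and -0.0265 with D1E6 alone. In *Elmsan1* KO against WT the 2 higher became 1 without a filter, against 1.78% of genes. They became 6 in the single fit (7.14% of members, 24.3% of genes) and 0 with the correlation (0.145% of genes). With the chromosomes centred they became 0 (2.7% of genes) and with E2E8 alone 4 (4.76% of members, 24.7% of genes). The 1 lower became 0 without a filter (1.96% of genes) and 2 with quantile normalization (2.38% of members, 5.89% of genes). It became 11 in the single fit (13.1% of members, 23.8% of genes) and 0 with the correlation (0.227% of genes). With E2E8 alone 9 were lower (10.7% of members, 21.3% of genes) and with E2G7 alone 2 (2.38%, 17.5%). The median was -0.0610 with E2E8 alone and 0.0361 with E2G7 alone. Between the knockouts the single fit gave 22 higher and 2 lower (26.2% and 2.38% of members, 22.3% and 20.9% of genes). The single fit leaves differences between clones out of its error. In D2A7 against D1E6 the 28 higher became 3 without a filter, 9 without a variance trend and 45 with voom on recovered fragments. Of all genes 5.27%, 20.4% and 25.7% were higher in these fits. The 4 lower became 1 without a filter and 2 with the chromosomes centred, against 3.58% and 15.5% of genes. The median was 0.11 with voom. In E2E8 against E2G7 the 0 higher became 1 when genes had to average 1 FPKM, against 31.1% of genes. The 15 lower became 0 without a filter, 24 in the single fit and 51 with voom, where the median was -0.13. Of all genes 4.9%, 21.7% and 29.5% were lower in these fits. The causes were not tested.

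The direction reversed for *Rpl32* in *Dnttip1* KO with D2A7 alone (-0.0137), for *Rps4y2* in *Dnttip1* KO with D2A7 alone (-0.18) and with the chromosomes centred (-0.0316), and with the chromosomes centred for *Rps4y2* (-0.0487) in *Elmsan1* KO and for *Rpl32* in D2A7 against D1E6 (0.0711).

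Leaving out 1 library at a time gave 0 to 1 higher, 0 to 0 lower and a median of 0.0116 to 0.0670 in *Dnttip1* KO, 0 to 1 higher, 0 to 2 lower and -0.0411 to 0.0104 in *Elmsan1* KO, 0 and 0 with 0.0258 to 0.0882 between the knockouts, 4 to 20 higher, 2 to 4 lower and 0.11 to 0.15 in D2A7 against D1E6, and 0 to 1 higher, 2 to 17 lower and -0.112 to -0.0521 in E2E8 against E2G7. A lone library left in a line was assumed to vary like the others.

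Replicate numbers did not pair the samples, with correlations of deviations between same-numbered libraries from -0.139 to 0.192. With the number as a replicate block, higher and lower members were 1 and 0 in *Dnttip1* KO (1.47% and 1.09% of genes). They were 1 and 0 in *Elmsan1* KO (1.99% and 1.81%) and 0 and 0 between the knockouts (0% and 0%). In D2A7 against D1E6 they were 29 and 4 (21.9% and 15.8%), and in E2E8 against E2G7 0 and 18 (28.4% and 21.4%).

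With 2 libraries a line, calls of members turn on single libraries, while the medians kept their sign in both clone comparisons under every alternative that was run. Of the named members' values under alternatives, 368 kept direction and side of the threshold, 65 lost their call, 16 gained one and 5 reversed. *Rpl3l* is limited by depth.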
